A study of Rattus norvegicus with 16 samples.

Results

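Platelet-activating factor (PAF) is a lipid messenger of allergic inflammation, and the 9 genes described here encode its receptor (Ptafr), 3 enzymes that make it (Pla2g4a, Lpcat2 and Lpcat1) and 5 enzymes or enzyme subunits that break it down (Pla2g7, Pafah2, Pafah1b1, Pafah1b2 and Pafah1b3). They were chosen by name, as the probes whose RefSeq transcript maps to 1 of these symbols. All 9 were found, on 13 of the 45598 rat probes and among the 16678 gene symbols that could be named on the array. A gene with more than 1 probe is represented by its brightest, which was the same in both tissues, and its other probes are given beside it.

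RNA came from the lungs and adipose tissue of the same 8 male Brown Norway rats, 7 weeks old at the start, on 16 Agilent 1-color arrays, 1 per rat and tissue. The 5 HDM rats had house dust mite in 2 phases of 3 weeks each: weekly subcutaneous doses of 45 µg with an aluminum hydroxide adjuvant came first, and doses of 120 µg into the nose, 3 per week, followed. In the 3 control rats saline took the place of the mite in both phases, so both groups carried the adjuvant and the nasal handling. The labels name neither the fat depot nor any sorting of cells, and each sample is whole tissue, in which fewer cells of a type and less RNA per cell cannot be told apart.

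PAF acts on a G protein-coupled receptor carried by neutrophils, eosinophils, macrophages and smooth muscle, and it is known for bronchoconstriction, vascular leak and recruitment of leukocytes. In the remodeling route, cytosolic phospholipase A2 (Pla2g4a) releases arachidonic acid from an ether phospholipid of the membrane, and the lyso-PAF left behind is acetylated by Lpcat2, the acetyltransferase of inflammatory cells, or Lpcat1, which also serves surfactant lipid synthesis in alveolar type II cells. PAF is inactivated when its acetyl group is removed, by Pla2g7, the secreted acetylhydrolase of plasma, which macrophages produce, by the intracellular Pafah2, or by the brain-type complex of the catalytic subunits Pafah1b2 and Pafah1b3 with the regulatory subunit Pafah1b1, also called Lis1.

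The promoters of Ptafr, Lpcat2 and Pla2g7 are shown because these were the genes of the receptor, synthesis and breakdown groups with the largest differences between the lungs of HDM and control rats. Each runs 5′ to 3′ from 250 bases before to 50 bases after the gene's start in the RefSeq annotation of the GRCr8 assembly. Capitals mark matches, on either strand, to the letters searched, which were TGANTCA for AP-1, TTCNNNGAA for STAT factors, TTGCNNCAA for C/EBP, GAGGAA for ETS factors of the PU.1 type, GGGCGG for the GC box and TATAAA for the TATA box. No match overlapped another in these windows.
Ptafr, chr5:150057154-150057453, plus strand: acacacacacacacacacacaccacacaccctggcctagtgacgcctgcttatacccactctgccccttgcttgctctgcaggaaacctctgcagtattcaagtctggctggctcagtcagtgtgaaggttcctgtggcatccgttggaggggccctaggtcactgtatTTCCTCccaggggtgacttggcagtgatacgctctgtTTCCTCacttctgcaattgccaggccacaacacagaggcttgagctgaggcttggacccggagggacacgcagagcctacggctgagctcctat
Lpcat2, chr19:30325527-30325826, minus strand: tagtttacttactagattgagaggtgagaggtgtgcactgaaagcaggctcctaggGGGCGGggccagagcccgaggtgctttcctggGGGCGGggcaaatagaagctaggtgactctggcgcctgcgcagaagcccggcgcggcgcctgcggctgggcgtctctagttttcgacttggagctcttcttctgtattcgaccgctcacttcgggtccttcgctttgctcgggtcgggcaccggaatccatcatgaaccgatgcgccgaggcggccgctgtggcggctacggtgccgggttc
Pla2g7, chr9:24901698-24901997, minus strand: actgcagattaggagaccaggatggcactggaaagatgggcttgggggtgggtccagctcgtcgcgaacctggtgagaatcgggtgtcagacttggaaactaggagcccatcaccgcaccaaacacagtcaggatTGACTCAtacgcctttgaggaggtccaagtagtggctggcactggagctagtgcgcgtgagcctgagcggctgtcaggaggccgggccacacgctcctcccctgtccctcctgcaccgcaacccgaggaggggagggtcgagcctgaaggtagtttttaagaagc
The Ptafr window held the ETS letters at positions -81 and -44 from the start, counted from the first matching base. The Lpcat2 window held the GC box at -194 and -162, and the Pla2g7 window held the AP-1 letters at -115. Of all 33469 rat promoters of this length, 27.6% held the ETS letters, 33.1% the GC box, 14.2% the TATA letters, 8.87% the STAT letters, 7.33% the AP-1 letters and 2.17% the C/EBP letters. A promoter was given for 7 of the 9 genes, and among these 7 the ETS letters stood in 2 (Ptafr and Pafah2), the GC box in 3 (Lpcat2, Lpcat1 and Pafah2), the TATA letters in 1 (Pla2g4a) and the STAT and C/EBP letters in 0. The 3 promoters printed thus shared none of these motifs with each other.

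Values are given as log2 signal relative to the array's own 75th percentile, so that 0 is the signal below which 75% of the probes lie. That percentile was a signal of 376 to 488 on the lung arrays and 111 to 240 on the adipose arrays, and 62.1% to 68.8% of lung probes and 50.5% to 60.3% of adipose probes were well above background. A probe was called changed at a Benjamini–Hochberg adjusted p below 0.05 over all probes with a fold change above 1.5. Lung markers of alveolar type II cells (Sftpc and others) and fat markers (Adipoq and others) were high in the labeled tissues, with mean list levels of 6.31 to 6.62 in lung for the first and 5.34 to 6.68 in adipose tissue for the second. In the other tissue the type II list lay at -4.46 to -3.49. The fat list varied more between the lung arrays, from -1.51 to 0.80. The adipose arrays of HDM rat 1 and control rat 1 stood apart: a list of 9 epididymis genes (Lcn5, Crisp1, Gpx5 and others) lay at 7.02 and 7.17 there and between -5.57 and -4.06 on the other 6 adipose arrays. The adipose changes of the 9 genes are therefore given with and without these rats. All lung arrays lay on 1 slide and all adipose arrays on another. HDM rats 1 to 4 lay in 1 row of each slide, and HDM rat 5 and all control rats in the other. Group and slide row thus largely coincide. Their effects on a difference within a tissue cannot be told apart except through HDM rat 5.

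In the lungs, the receptor, Lpcat2 and Pla2g7 were higher in every HDM rat than in any control rat, by 1.58-fold for Ptafr, 1.48-fold for Lpcat2 and 2.24-fold for Pla2g7. Pla2g4a was higher in every HDM rat by 1.21-fold, and Pafah1b1 lower in every HDM rat by 1.23-fold. The groups of the other 4 genes overlapped. None of the 9 was called by limma, against 0.855% of all probes (390). With the adjustment made only over probes past 1.5-fold, which selects probes by the differences tested, Ptafr (adjusted p = 0.00670) and Pla2g7 (adjusted p = 0.00508) were called. The groups did not overlap for 5 of the 9 genes, against 9.61% of all probes. The unadjusted p was below 0.05 for Ptafr, Pla2g4a, Lpcat2, Pla2g7 and Pafah1b1, against 10.2% of all probes. The median change of the 9 was 0.24, and that of all probes 0.0028.

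**Figure D1:**
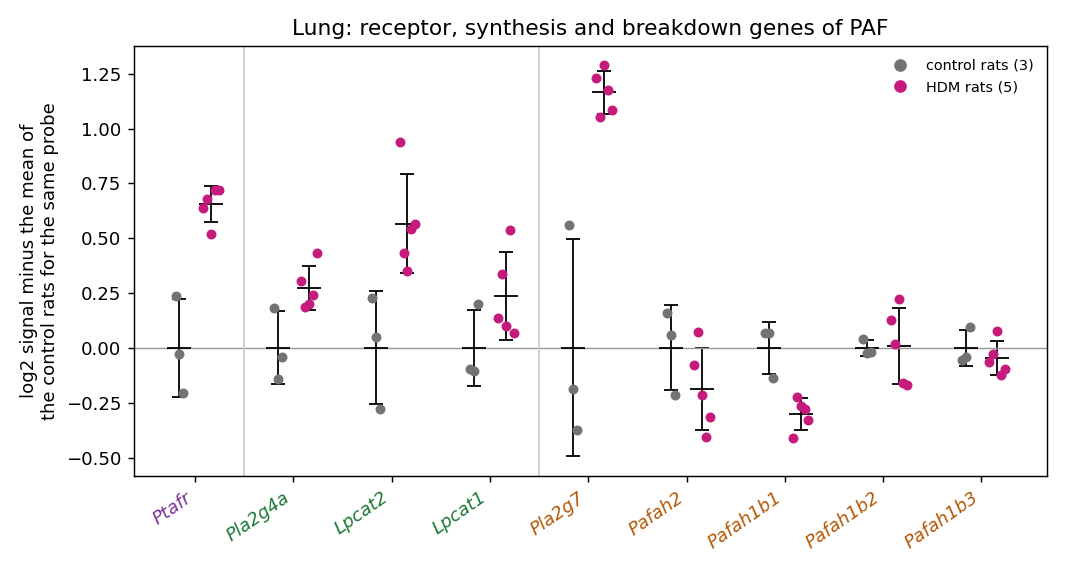
Each point is 1 rat's lung, as log2 signal minus the mean of the 3 control rats for the same probe, for the receptor (purple name), synthesis genes (green) and breakdown genes (orange); bars give mean ± SD of 3 control (gray) and 5 HDM rats (pink). The HDM rats lie above the controls for Ptafr, Pla2g4a, Lpcat2 and Pla2g7 and below them for Pafah1b1.

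Ptafr lay at 1.75, 1.80, 1.64, 1.83 and 1.84 in the lungs of HDM rats 1 to 5 and at 1.35, 1.09 and 0.91 in control rats 1 to 3. The HDM rats were close together at 1.77 ± 0.08 (SD, n = 5) and the control rats more spread at 1.12 ± 0.22 (SD, n = 3), with no overlap. The difference was 0.66 (SE 0.12), with an adjusted p of 0.0671 in limma, just above the threshold, at a rank of 544 of 45598 probes by p. The adjusted p was below 0.05 with the fold above 1.5 under 5 of 22 alternative settings, and the other 17 gave no call. Among the 5, the limma adjusted p was 0.0307 after quantile normalization, 0.00724 with normexp background correction and 0.0179 with dim probes left out. Among the 17, it was 0.164 with median scaling, 0.133 when scaled to Gapdh and Hprt1 and 0.966 in the joint fit of both tissues. In limma the adjusted p lay between 0.0783 and 0.269 when any 1 rat was left out. Within the slide row that held both groups (1 HDM rat and 3 control rats) the difference was 0.72, and a fit within this row called 0 of all probes, so no test is read from it.

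Pla2g4a, which supplies the lyso-PAF, was at -1.62, -1.74, -1.72, -1.68 and -1.49 in HDM rats and at -1.74, -2.06 and -1.96 in control rats. HDM rat 2 and control rat 1 were almost level, so the separation of the groups is narrow. The difference was 0.27 (SE 0.12, limma adjusted p = 0.482). Lpcat2 was at -0.30, -0.80, -0.89, -0.69 and -0.67 in HDM rats against -1.01, -1.19 and -1.51 in control rats. HDM rat 1 was the highest of the 5, and all 5 lay above the controls, with a difference of 0.57 (SE 0.17, limma adjusted p = 0.256). Lpcat1 was at -0.08, 0.12, -0.12, 0.32 and -0.15 in HDM rats and at -0.31, -0.32 and -0.02 in control rats. Its groups overlapped through control rat 3, and the difference was 0.24 (SE 0.15, limma adjusted p = 0.722).

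Pla2g7, the secreted acetylhydrolase, showed the largest difference of the 9 genes. It was at 2.06, 1.88, 2.12, 2.00 and 1.91 in the lungs of HDM rats, a narrow band of 1.99 ± 0.10 (SD, n = 5), and at 1.39, 0.64 and 0.45 in control rats, 0.83 ± 0.49 (SD, n = 3). The difference was 1.17 (SE 0.21), larger in size than that of 98.8% of all probes, and its limma adjusted p was 0.0527. Control rat 1 lay closest to the HDM rats, and without it the difference was 1.45 with an adjusted p of 0.0127, the only fit among those leaving out 1 rat in which Pla2g7 was called (range 0.0127 to 0.232). Pla2g7 was called in 6 of 22 alternative settings, that fit included, and the other 16 gave no call. Among the 6 were quantile normalization (limma adjusted p = 0.0360), normexp (0.000290) and dim probes left out (0.0147). Within the slide row holding both groups, where HDM rat 5 was the only HDM rat, its difference was 1.08.

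The intracellular breakdown genes showed no difference of the size seen for Pla2g7. Pafah2 was at 3.99, 4.14, 3.86, 3.67 and 3.76 in HDM rats and 4.23, 4.13 and 3.86 in control rats, overlapping, with a difference of -0.19 (SE 0.15, limma adjusted p = 0.823). Its dimmer second probe gave -0.31 (SE 0.19). Pafah1b1, the regulatory subunit, was between -1.65 and -1.46 in the 5 HDM rats and at -1.17, -1.17 and -1.37 in the control rats. Every HDM rat was lower, by 0.30 on average (limma adjusted p = 0.322), a change below the fold threshold. The catalytic subunits lay at nearly the same level in both groups. Pafah1b2 averaged 0.81 ± 0.17 (SD, n = 5) with house dust mite and 0.80 ± 0.04 (SD, n = 3) with saline, and its other 3 probes differed between the groups by -0.11 to 0.16. Pafah1b3 was at 0.04 ± 0.08 (SD, n = 5) and 0.09 ± 0.08 (SD, n = 3).

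In adipose tissue the same 9 genes gave no call, nor did any of the 45598 probes (0.00%), while 9.90% of all probes had an unadjusted p below 0.05 in limma. Among the main probes of the 9, that of Lpcat2 had an unadjusted p below 0.05 (0.0366) and was the only 1 whose groups did not overlap, against 6.26% of all probes. The median change of the 9 was -0.06, beside -0.15 for all probes. Ptafr and Lpcat2 had positive differences of 0.75 and 0.48, and the other 7 lay between -0.30 and 0.04.

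**Figure D2:**
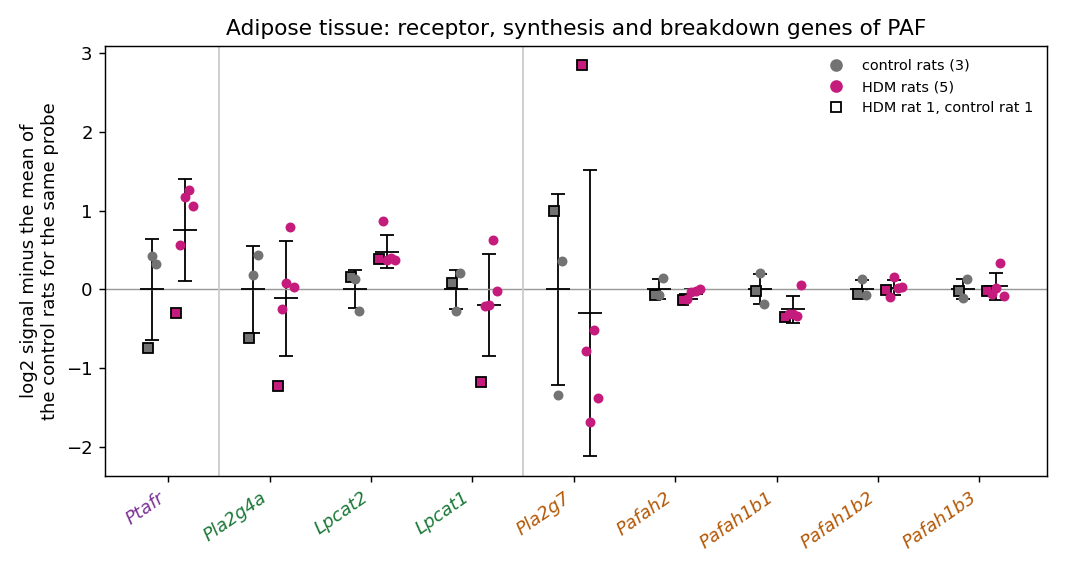
Each point is 1 rat's adipose tissue, as log2 signal minus the mean of the 3 control rats for the same probe, with mean ± SD of 3 control (gray) and 5 HDM rats (pink); squares mark HDM rat 1 and control rat 1, whose arrays were high in epididymis genes. Those squares are the lowest of their groups for Ptafr and Pla2g4a and the highest for Pla2g7, and among the 9 genes the groups are separate for Lpcat2.

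Ptafr in adipose tissue was at 1.42, 2.29, 2.89, 2.98 and 2.78 in HDM rats 1 to 5 and at 0.98, 2.15 and 2.04 in control rats 1 to 3. The lowest value of each group came from the array high in epididymis genes, and the groups overlapped. The difference was 0.75 (SE 0.43, limma adjusted p = 0.627), and 0.64 without HDM rat 1 and control rat 1 (adjusted p = 0.688). It was 0.38 without control rat 1 alone and 1.01 without HDM rat 1 alone. Macrophage markers (Cd68, Csf1r and others, 11 measured) followed a similar order over these arrays, with a mean level of -0.05 in HDM rat 1 and 0.41 to 1.13 in the other HDM rats, and -0.53 in control rat 1 against 0.26 and 0.49 in the other control rats. Their part in the Ptafr values was not tested.

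Lpcat2 was at -1.43, -0.94, -1.43, -1.40 and -1.43 in HDM rats and at -1.66, -1.68 and -2.08 in control rats. Every HDM rat was higher, with HDM rat 2 apart from the rest, and the difference was 0.48 (SE 0.19, limma adjusted p = 0.476), or 0.58 without HDM rat 1 and control rat 1. Pla2g4a was at -2.41, -1.42, -1.09, -0.38 and -1.15 in HDM rats and between -1.79 and -0.73 in the control rats. It was lowest in HDM rat 1 and control rat 1, and its difference was -0.11 (SE 0.45), or -0.14 without them. The Lpcat1 probe was well above background in only 1 of the 5 HDM rats and 1 of the 3 control rats, so its change in adipose tissue was not measured with any precision (-0.20, SE 0.37, and 0.09 without HDM rat 1 and control rat 1).

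Pla2g7 in adipose tissue was at 3.16, -0.47, -1.37, -0.19 and -1.07 in HDM rats and at 1.31, -1.03 and 0.67 in control rats. HDM rat 1 lay more than 3 log2 units above the other HDM rats, and control rat 1 was the highest control. The difference was -0.30 with an SE of 1.05, and it was -0.60 without these rats and -1.09 without HDM rat 1 alone, none of them called. Among the intracellular genes the differences were -0.06 (SE 0.14) for Pafah2, -0.25 (SE 0.17) for Pafah1b1, 0.02 (SE 0.14) for Pafah1b2 and 0.04 (SE 0.16) for Pafah1b3. Without HDM rat 1 and control rat 1 they were -0.08, -0.24, -0.0035 and 0.04. The other 3 probes of Pafah1b2 gave 0.22 to 0.30, and on 2 of them every HDM rat lay above the controls. The dimmer Pafah2 probe was well above background in 0 of 5 HDM rats and 1 of 3 control rats, so no fold is given for it.

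**Figure D3:**
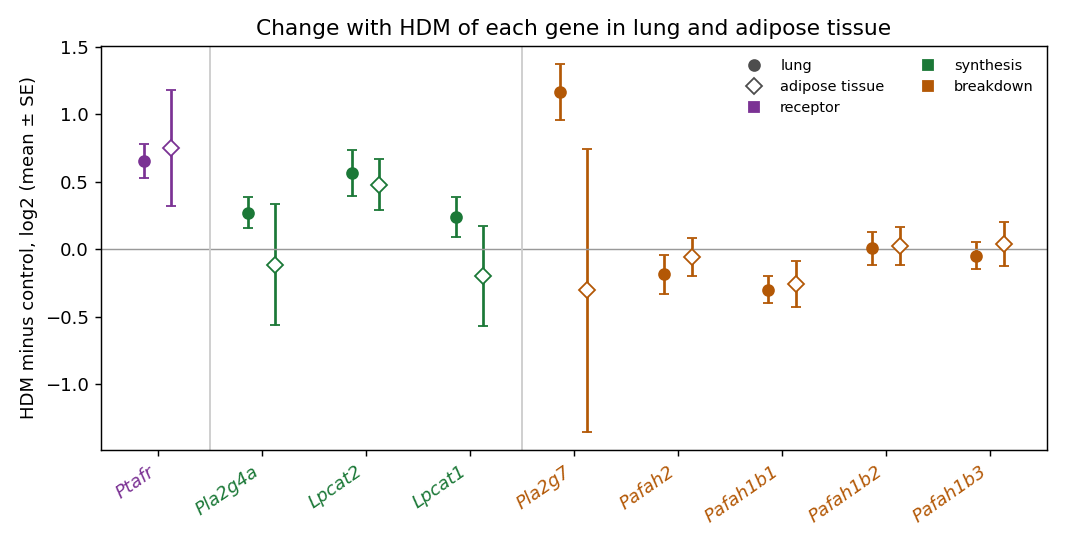
Difference between HDM and control rats on the log2 scale (mean ± SE from limma) for each gene in lung (filled circles) and adipose tissue (open diamonds), ordered as receptor, synthesis and breakdown. The largest lung value is that of Pla2g7 at 1.17, and its adipose value of -0.30 has an SE of 1.05.

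Whether the change with house dust mite differed between the tissues was tested within rats, on lung minus adipose values. None of the 9 genes was called, and 1 of all probes was (0.00219%). The lung change exceeded the adipose change by 1.47 (SE 1.01, limma adjusted p = 0.740) for Pla2g7, by 0.43 for Lpcat1 and by 0.39 for Pla2g4a. For Ptafr the changes differed by -0.09 (SE 0.48), and for Lpcat2 by 0.09 (SE 0.25). For the other 4 genes the difference of changes lay between -0.13 and -0.02. With an SE of 0.48 for Ptafr, a difference as large as its lung change could not be told from 0 with these rats.

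The change of each enzyme was also set against the change of the receptor in the same rats, by taking the enzyme's value minus that of Ptafr, each centered on its own mean. A two-sided exact permutation test over all 56 assignments of the 8 rats to groups of 5 and 3 was used for 8 enzymes in each tissue, and the smallest p it can give is 0.0179. In lung, 6 of the 8 enzymes had a p below 0.05, against 48.8% of all probes compared with Ptafr in the same way. Since Ptafr itself was higher in every HDM rat, a gene with a change near 0, such as Pafah1b3, also passes this test. The change of Pla2g7 was 0.51 above that of the receptor (exact p = 0.0179). Relative to the receptor, Pla2g4a changed by -0.38, Pafah2 by -0.84, Pafah1b1 by -0.96 and Pafah1b3 by -0.70, each with an exact p of 0.0179, and Pafah1b2 by -0.65 (exact p = 0.0357). The differences of Lpcat1 (-0.42, exact p = 0.0536) and Lpcat2 (-0.09, exact p = 0.554) did not pass. In adipose tissue 2 of 8 had a p below 0.05, against 9.0% of all probes, and the count ranged from 0 to 4 with 1 rat left out. They were Pla2g4a (-0.86, exact p = 0.0179) and Lpcat1 (-0.95, exact p = 0.0357), the latter on a probe well above background on only 2 of the 8 arrays. All 8 comparisons of a tissue share the same Ptafr values.

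The profile of each gene over the 8 lung arrays was set against that of Ptafr by the root mean square difference of the centered log2 values, which counts the size of a difference between groups as well as its order over the rats. Among the 8 enzymes it was smallest for Lpcat2. It was 0.17 for Lpcat2 and 0.21 for Pla2g4a, at ranks of 97 and 269 of 11943 gene symbols that were well above background on all lung arrays. Lpcat1 and Pla2g7, the latter with a larger difference between the groups than Ptafr, stood at ranks of 1650 and 1789, and the 4 intracellular breakdown genes at 4719 or lower. The 5 symbols closest to Ptafr were Nlrp3, an inflammasome sensor, Apbb1ip, an adapter of integrin activation, Sema4d, a semaphorin of lymphocytes, and Lhfpl2 and C1h16orf54. Their root mean square differences were 0.07 to 0.08. Their folds between HDM and control rats (1.48 to 1.66) lie near that of Ptafr because they were chosen for their likeness to it on these arrays.

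Other genes of PAF and phospholipid metabolism showed no call in either tissue. Of 13 measured ether lipid and acyl remodeling enzymes, 0 were called, and their median change in lung was -0.06. The 3 with the smallest p there were Peds1, the plasmanylethanolamine desaturase of plasmalogen synthesis (-0.40, SE 0.10, limma adjusted p = 0.178), Cept1 (-0.20) and Agpat1 (-0.19). Peds1 was lower in every HDM rat. In adipose tissue the 3 were Lpcat3, a lysophospholipid acyltransferase (0.46, SE 0.18, limma adjusted p = 0.475), Mboat2, which lay at background on all adipose arrays, and Cept1 (0.31).

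Of 11 other phospholipases A2, 0 were called, with a median change of -0.10 in lung. Prdx6, a peroxiredoxin with phospholipase A2 activity in lung surfactant turnover, was lower in every HDM rat (-0.53, SE 0.12, limma adjusted p = 0.105), as was the lysosomal Pla2g15 (-0.34, SE 0.10, limma adjusted p = 0.206). The secreted Pla2g2a had an overlapping difference of 0.27. In adipose tissue the smallest p belonged to Pla2g2d (0.84, SE 0.43), Pla2g4b (-0.68) and Plaat3 (0.40), none with separate groups.

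Of 25 genes of signaling below the receptor, 0 were called in either tissue, and the median change in lung was -0.01. In lung, protein kinase C beta (Prkcb) was higher in every HDM rat by 0.40 (SE 0.12, limma adjusted p = 0.236), the inhibitory G protein subunit Gnai3 lower by 0.45 (-0.45, SE 0.13, limma adjusted p = 0.243) and beta-arrestin 2 (Arrb2) higher by 0.32 (SE 0.10, limma adjusted p = 0.290). In adipose tissue the smallest p belonged to Gnai2 (0.35), Prkcb (0.58) and Mapk14 (0.33), all with overlapping groups.

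Markers of cell types that can carry the PAF receptor, and of others, were followed in the same tissues. Of 11 measured neutrophil genes, 6 were called higher in HDM lungs (S100a8, S100a9, Mmp8, Csf3r, Cxcr2 and Fcnb), with a median change of 1.78. The mean level of the list was -0.25 to 0.16 in HDM rats and -2.14 to -1.92 in control rats, while Ltf and Elane were at background throughout the lung arrays. The 6 eosinophil genes had a median change of 1.22 and levels of -3.58 to -2.62 in HDM rats and -4.69 to -3.96 in control rats, with 0 called and Il5ra not well above background. Of these 6, Prg2 (1.75) and Prg3 (2.73) were higher in every HDM rat, and the groups of the others overlapped. Epx and Prg3 were well above background in 0 of 3 control rats, so the size of their changes is uncertain. Macrophage genes (11 measured) had a median change of 0.10 and overlapping mean levels, with 0 called. Among them, 4 were higher in every HDM lung: Ccr2, a monocyte chemokine receptor (0.91, limma adjusted p = 0.0931), Adgre1 (0.64), Cd68 (0.27) and Cd14 (0.18). Platelet genes (5 measured) had a median change of 0.13 and overlapping levels. Alveolar type II genes (7 measured) had a median change of -0.10, and mast cell genes (8 measured) one of 0.12. In adipose tissue the mean level of the neutrophil list was -2.75 to -2.17 in HDM rats and -3.40 to -2.85 in control rats, with 0 of 11 called. There the genes did not move together: S100a8 (4.66), S100a9 (3.83) and Csf3r (2.16) were higher in every HDM rat, and 5 of the 11 had negative differences. Csf3r was well above background in 0 of 3 control rats. The negative differences included Lcn2 (-1.89), with an SE of 1.90, and Ltf (-1.44). Ltf was well above background in 1 of 5 HDM rats and 2 of 3 control rats, and Mmp8, Ngp and Elane were at background throughout. The part of these cells in the values of Ptafr, Lpcat2 and Pla2g7 was not tested.

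Between the tissues of the same rats, Lpcat1 and Pafah2 were higher in lung in both groups, and Ptafr was not. This comparison rests on 1 slide per tissue, so tissue and slide cannot be told apart. In control rats 2 of the 9 genes were called, against 44.3% of all probes, whose median difference was -0.58. Lpcat1 was higher in lung by 3.94 on the log2 scale (SE 0.26), a 15.4-fold difference (limma adjusted p = 5.2e-05), and Pafah2 by 1.99 (SE 0.19, limma adjusted p = 0.000237). In HDM rats 4 of the 9 were called, again against 44.3%, with a median difference of -0.35. They were Lpcat1 (4.38, SE 0.20), Pafah2 (1.86, SE 0.14), Pla2g7 (1.98, SE 0.62, limma adjusted p = 0.0292) and Lpcat2 (0.66, SE 0.15, limma adjusted p = 0.00784), all higher in lung. The size of the Lpcat1 difference is uncertain, because its probe was well above background in the adipose tissue of only 1 of 3 control rats and 1 of 5 HDM rats. With normexp it was 1.31 in control rats and 1.70 in HDM rats.

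**Figure D4:**
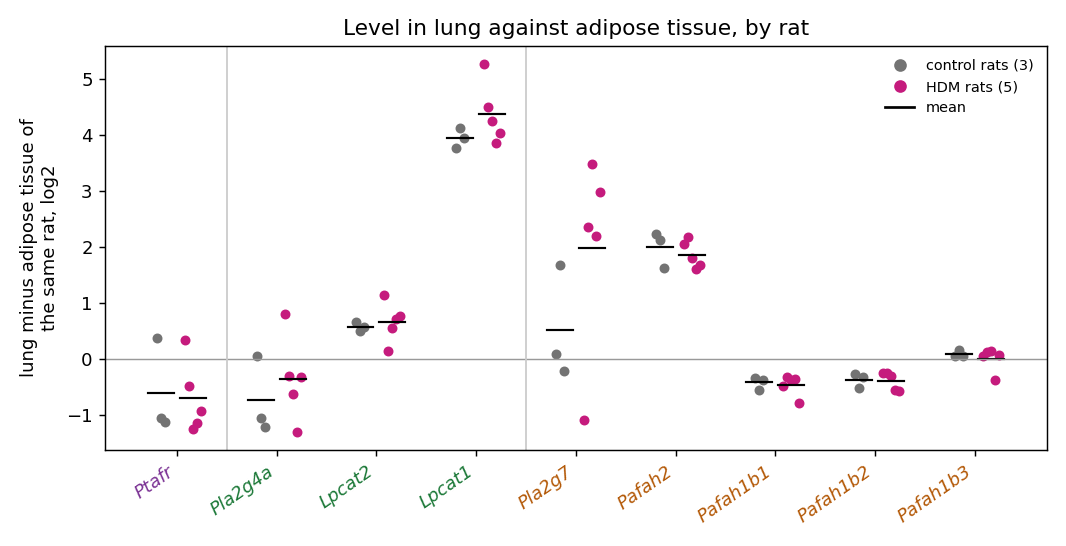
Lung minus adipose log2 signal of the same rat for each gene (points; lines are means) in 3 control rats (gray) and 5 HDM rats (pink). Lpcat1 and Pafah2 lie above 0 in all 8 rats, and Pla2g7 lies below 0 in HDM rat 1 and control rat 3.

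Lpcat1 and Pafah2 were higher in lung in 8 of 8 rats, and Lpcat2 too, although in control rats its difference of 0.57 (1.48-fold) stayed under the fold threshold. Pla2g7 was higher in lung in 4 of 5 HDM rats and 2 of 3 control rats. Its call in HDM rats was lost when HDM rat 2, 3, 4 or 5 was left out (adjusted p of 0.0735 to 0.0924), and the Lpcat2 call was lost without HDM rat 1, where the difference was 0.54. Ptafr was lower in lung in 4 of 5 HDM rats (-0.70, SE 0.30, limma adjusted p = 0.0828) and in 2 of 3 control rats (-0.61, SE 0.38, limma adjusted p = 0.217). The difference in control rats was close to the median of all probes. The exceptions were HDM rat 1 and control rat 1, and without HDM rat 1 the difference in HDM rats was -0.96 and was called (limma adjusted p = 0.0271). It was also called without control rat 1, at the same -0.70 (limma adjusted p = 0.0489). Pla2g4a differed by -0.36 in HDM rats, or 0.07 when scaled to Gapdh and Hprt1, and by -0.75 in control rats, with no call. Pafah1b1 was lower in lung in all 8 rats (-0.42 in control and -0.47 in HDM rats), by less than the fold threshold, but stood at 0.03 in control rats when arrays were scaled to Gapdh and Hprt1. Pafah1b2 has no settled direction between the tissues, since its main probe gave -0.38 in control and -0.40 in HDM rats and its other 3 probes 0.06 to 0.42 and -0.27 to 0.27. Pafah1b3 was nearly level at 0.08 in control rats and -0.0023 in HDM rats.

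Ordered by level, Ptafr was lowest in control lung (1.12), followed by control adipose tissue (1.72), HDM lung (1.77) and HDM adipose tissue (2.47). Of these neighbors, control lung against control adipose tissue and HDM lung against HDM adipose tissue were tested and were not called. Lpcat2 ran from control adipose tissue (-1.81) over HDM adipose tissue (-1.33) and control lung (-1.24) to HDM lung (-0.67), and Pla2g7 was highest in HDM lung (1.99), with the 3 other groups between 0.01 and 0.83. Without HDM rat 1 and control rat 1 the adipose means of Ptafr were 2.09 in control and 2.74 in HDM rats, and those of Pla2g7 -0.18 and -0.78.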

How the data were processed

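RNA of 16 samples, the lungs and adipose tissue of 8 rats, was measured on 1-color arrays, with 50 ng of RNA per array. The authors deposited spot intensities on a linear scale, background-subtracted in Agilent Feature Extraction 12.0.3.1, with 62976 spots per array and no normalization between arrays. They also deposited a table of log2 values, whose steps are not given in the sources used here. The table lay within 0.1 of the values computed here, centered by probe within a tissue, in 100.0% of lung and 99.9% of adipose cells, and 39 of its cells held no number.

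From the intensities, control spots and outlier spots were left out, log2 values of a probe's spots were averaged, and the array's 75th percentile was subtracted. Groups were compared in each tissue by lmFit and eBayes of limma 3.58.1, run in R 4.3.3, without a filter on dim probes, and tissues by limma on each rat's difference. A call needed a Benjamini–Hochberg adjusted p below 0.05 over all 45598 probes and a fold above 1.5. RefSeq accessions were named through a table of 47357 rat genes, which gave 21229 probes a symbol. The threshold values are those of the study's methods. The unpaired test of 2 groups named there, and the adjustment over probes past 1.5-fold alone, the order of steps in the study's results, were run as alternatives. Alternatives also covered quantile, median and reference gene scaling, normexp (offset 50, on median spot and background signals, in place of the mean signals planned), the deposited table, a filter on dim probes, array weights, a joint fit of both tissues, slide rows, replicate blocks, other probes and each rat left out. The block on slide rows for the difference between tissues was added after the data had been seen. The limma script was tested on simulated data. The plots were made in matplotlib 3.10.9 under Python 3.11.15.

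Within a tissue each array holds a different rat, and the number of rats limits the precision. The 9 genes and the lists of other genes were chosen with earlier results of these data known. The genes named beside the 9 are the called genes of 3 pathway lists or, with none called, the 3 of smallest p in each list and tissue, the marker genes, and the 5 symbols closest to Ptafr. No sample column was left unused.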

Additional observations from a re-analysis of the deposited data

Results flagged for a closer look

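Of 18 groups of 5 HDM rats, 1 for each gene and tissue, 4 held a rat flagged as apart, all 4 in adipose tissue. The distance of that rat to its nearest neighbor was 0.74 to 0.95 of the group's whole range, and no other group reached 0.74. If values are normally distributed, which was not checked, the rule that flagged them is met by chance in about 1 of 20 independent groups. These 18 share the same 5 rats, so no excess over that rate is read from the 4. Pla2g7 was at 3.16 in HDM rat 1, whose array was high in epididymis genes, against -1.37 to -0.19 in the other HDM rats. Lpcat2 was at -0.94 in HDM rat 2 against -1.43 to -1.40. Pafah1b1 was at -0.77 in HDM rat 5, the HDM rat that shared a slide row with the controls, against -1.17 to -1.13. Pafah1b3 was at 0.34 in HDM rat 4 against -0.07 to 0.03.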

How the results depend on the processing

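In lung, 0 of the 9 genes were called, and 2 were with quantile normalization, normexp, dim probes left out and adjustment over probes past 1.5-fold alone, all 4 times Ptafr and Pla2g7. It was 1 with array weights (Ptafr) and with the 75th percentile of bright probes alone, those above background on every array (Pla2g7), and 0 to 1 with 1 rat left out. The count over all probes, 390, lay between 100 and 333 with 1 rat left out, and it was 751 with dim probes left out, 705 with array weights, 1329 with adjustment past 1.5-fold, 0 with the replicate block, 25 with slide rows and 166 in the joint fit. In adipose tissue and for the difference between tissues, 0 of the 9 were called in every setting run, while over all adipose probes array weights gave 338 and the joint fit 106. Tissue counts stayed within 1.5 times, at 2 to 3 in control rats and 3 to 5 in HDM rats, leaving out 1 rat included. The Lpcat2 call in HDM rats was lost with median scaling (0.56, adjusted p = 0.0390) and normexp (0.27), and in control rats it was gained with quantile (0.61), median (0.82), reference gene (1.03) and bright probe scaling (0.63). Enzymes that differed from Ptafr numbered 6 in lung (5 to 7 with 1 rat left out) and 2 in adipose tissue (1 with quantile normalization and 1 with normexp, and 0 to 4 with 1 rat left out). Rats of different groups share numbers in the labels but are different animals, and same-numbered deviations correlated at -0.06, -0.08 and 0.05 in lung and at 0.59, 0.14 and 0.10 in adipose tissue, so the numbers were not taken as pairs. With the number as a block in limma, the lung differences were 0.61 for Ptafr (adjusted p = 0.322) and 1.19 for Pla2g7 (adjusted p = 0.312), and 0 of the 9 genes were called in either tissue. The deposited table was not used between tissues, because it is centered within each. The only Lpcat1 probe and the second Pafah2 probe lay near background in adipose tissue, which limits both. Signs changed in the following cases, none of them a call in the values reported, and the cause was not tested. With the percentile of bright probes, the adipose change was -0.039 for Pafah1b2 and -0.024 for Pafah1b3, the difference of changes was 0.0070 for Ptafr, 0.053 for Pafah1b1, 0.084 for Pafah1b2 and 0.016 for Pafah1b3 and the tissue difference in HDM rats was 0.16 for Pafah1b3. With array weights, the lung change was -0.0020 for Pafah1b2 and the adipose change was 0.21 for Lpcat1, 0.048 for Pla2g7, 0.0074 for Pafah2 and -0.043 for Pafah1b2. With median scaling, the lung change was -0.045 for Pafah1b2, the adipose change was 0.18 for Pla2g4a, 0.10 for Lpcat1, 0.24 for Pafah2 and 0.040 for Pafah1b1 and the difference of changes was -0.26 for Lpcat2. With normexp, the tissue difference in control rats was -0.034 for Lpcat2. With quantile normalization, the adipose change was 0.31 for Lpcat1, the difference of changes was 0.022 for Ptafr, -0.089 for Lpcat1 and 0.020 for Pafah1b2 and the tissue difference in HDM rats was 0.0020 for Pafah1b3. With the replicate number as a block, the adipose change was 0.12 for Pla2g7 and -0.022 for Pafah1b3. With the slide row as a block, which equals the values within the row that held both groups, the lung change was -0.17 for Pafah1b2 and the adipose change was 0.023 for Pla2g4a, 0.0079 for Pafah2, 0.048 for Pafah1b1 and -0.081 for Pafah1b3. Scaled to Gapdh and Hprt1, the lung change was -0.012 for Pafah1b2, the tissue difference in control rats was 0.035 for Pafah1b1 and 0.078 for Pafah1b2 and the tissue difference in HDM rats was 0.067 for Pla2g4a, 0.011 for Pafah1b2 and 0.41 for Pafah1b3. Without HDM rat 1 and control rat 1, the adipose change was 0.087 for Lpcat1 and -0.0035 for Pafah1b2 and the difference of changes was 0.14 for Ptafr and 0.0016 for Pafah1b2. Other probes of the same gene gave -0.033 and -0.11 for the lung change of Pafah1b2, 0.88 for the difference of changes of Pafah2, 0.31, 0.061 and 0.42 for the tissue difference in control rats of Pafah1b2 and 0.015 and 0.27 for the tissue difference in HDM rats of Pafah1b2. With 1 rat left out at a time, the values that changed sign were, for the lung change -0.047 to 0.051 (Pafah1b2) and -0.078 to 0.00053 (Pafah1b3), for the adipose change -0.42 to 0.16 (Pla2g4a), -0.40 to 0.047 (Lpcat1), -1.09 to 0.19 (Pla2g7), -0.10 to 0.014 (Pafah2), -0.013 to 0.089 (Pafah1b2) and -0.037 to 0.10 (Pafah1b3), for the difference of changes -0.35 to 0.40 (Ptafr), -0.031 to 0.22 (Lpcat2), -0.11 to 0.036 (Pafah1b1), -0.092 to 0.038 (Pafah1b2) and -0.12 to 0.0091 (Pafah1b3), for the tissue difference in control rats -0.070 to 0.88 (Pla2g7) and for the tissue difference in HDM rats -0.038 to 0.091 (Pafah1b3).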
